A study of Mus musculus with 74 samples.

Results

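The suppressor of cytokine signaling (SOCS) family was followed through early T helper cell differentiation, in the form of its 4 genes *Cish*, *Socs1*, *Socs2*, and *Socs3*. They were taken by gene symbol from 13817 genes with an expressed probe. *Socs2* has 2 probes and the others 1 each, and the probe with the highest mean over all 74 arrays stands for a gene. The arrays are Illumina Mouse Sentrix-6 bead arrays of total RNA from CD4+ CD62L-hi T cells of Balb/c mice, aged 5 to 8 weeks, whose spleen and lymph node cells were pooled. Naive cells were taken at 0 h, and cultures activated with anti-CD3 and anti-CD28 were taken at 3, 6, 12, 24, 35, 48, 73, 96, and 120 h. Th0 cultures held antibodies against IFN-γ, IL-4, and IL-12. In Th1 cultures IL-12 was added and IL-4 was blocked, and in Th2 cultures IL-4 was added while IL-12 and IFN-γ were blocked. Th1/2 cultures, labelled ThMix, got both cytokines and no blocking antibody. Antibodies and cytokines thus change together and their parts in a difference cannot be told apart. Each of the 37 conditions has 2 arrays, 1 from each of 2 experiments, so the spread behind every p is that between these arrays.

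Cytokines such as IL-2, IL-4, IL-6, IL-12, and IFN-γ bind receptors that carry JAK kinases, and these kinases phosphorylate STAT transcription factors. SOCS genes are themselves targets of STAT factors, and their proteins bind the receptors or kinases through an SH2 domain and recruit a ubiquitin ligase through the SOCS box, which closes a negative feedback loop. *Cish* and *Socs2* are best known as targets of STAT5 and *Socs3* of STAT3, while SOCS1 restrains IFN-γ and IL-4 signals.

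STAT dimers bind the palindrome TTCNNNGAA or, for STAT6, TTCNNNNGAA, and interferon-activated complexes bind repeats of the kind GAAANNGAAA. The stretches below show where letters of this kind stand in promoter windows of 300 bases, 250 before and 50 from the start of the gene on, as RefSeq gives them for build GRCm38.p6, where 3 of the 4 members matched an entry, all but *Socs2*. Capitals mark the matches, and each stretch is given 5′ to 3′ on the strand of the gene. *Cish* holds a pair of TTCNNNGAA matches, at positions 1 and 12 counted from its start, within chr9:107296654-107296683 on the plus strand. *Socs3* holds 1 such match, at position -154, within chr11:117969501-117969530 on the minus strand. *Socs1* holds 2 overlapping matches to GAAANNGAAA, at positions -83 and -77, within chr16:10785597-10785626 on the minus strand.
Cish: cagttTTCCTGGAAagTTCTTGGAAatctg
Socs3: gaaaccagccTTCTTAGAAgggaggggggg
Socs1: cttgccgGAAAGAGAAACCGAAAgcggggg
Of 32851 promoter windows searched on both strands, 8.3% held TTCNNNGAA at least once and 0.457% held it 2 or more times. GAAANNGAAA or its reverse complement TTTCNNTTTC stood in 3.44% of the windows, and 2 or more times in 0.225%. TTCNNNNGAA, found in 6.95% of the windows, matched none of the 3 windows. These matches describe letters and no binding was measured.

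All levels below are log2 values of the deposited intensities, and a fold change is 2 to the power of a log2 difference. The level of 1 gene was not set against that of another. A value above 6.77, the median of all values, in the mean of at least 1 condition made a probe expressed. Differences, SE, and adjusted p come from limma over all 13817 genes with Benjamini-Hochberg adjustment, and a gene was called at an adjusted p under 0.05. Early levels are means over 3, 6, and 12 h (6 arrays per culture), middle levels over 24 and 35 h (4 arrays), and late levels over 48, 73, 96, and 120 h (8 arrays). The model takes the arrays of a culture at different times as independent although they come from only 2 experiments. Arrays of Th1/2 cells at 12 h (experiment 1) and of Th0 cells at 96 h (experiment 2) stood apart in earlier results of these data. Among the members the widest gap to the partner array there was that of *Socs2* at 96 h, 14.94 against 14.35. In bulk RNA, fewer cells that express a gene and less of its RNA per cell cannot be told apart.

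**Figure D1:**
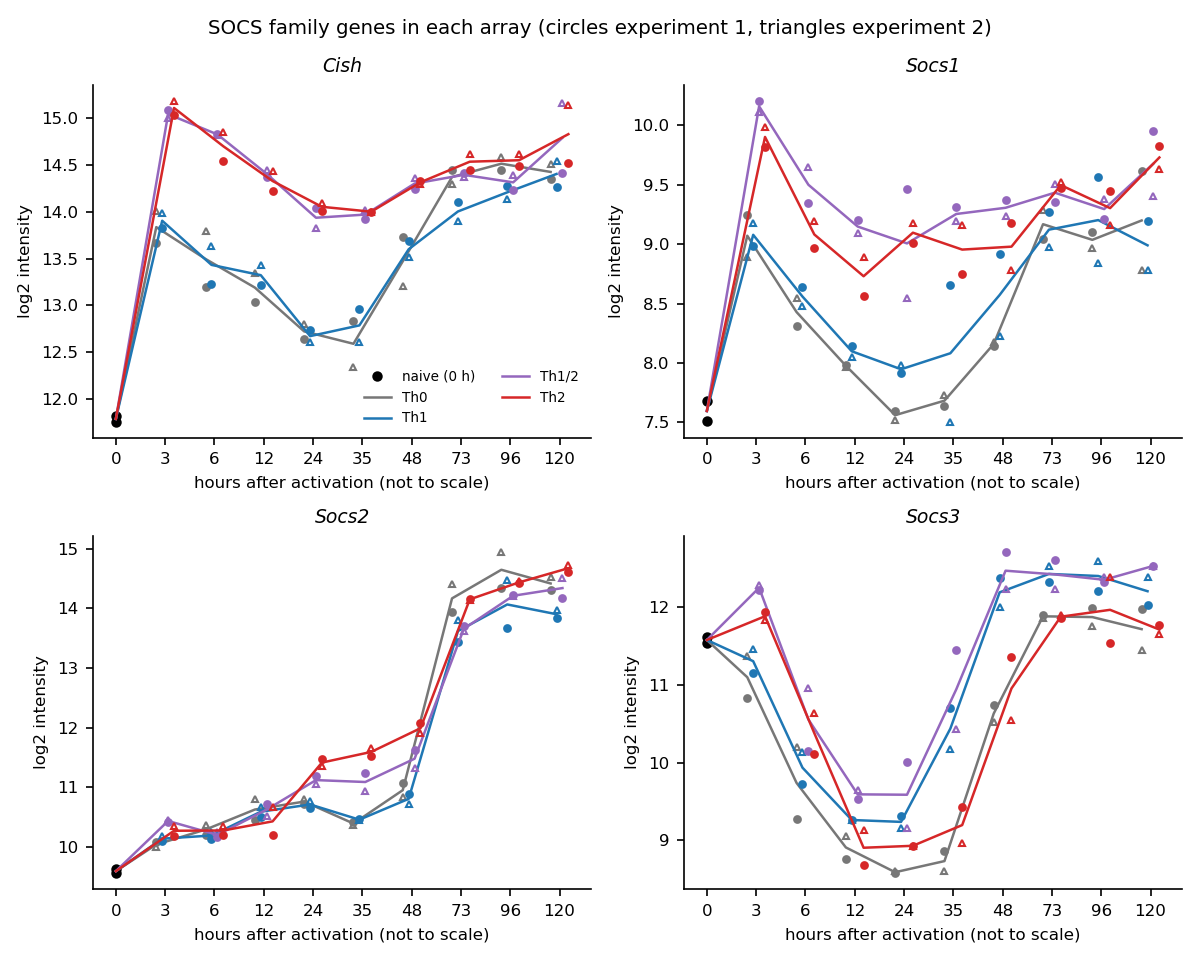
Log2 intensity (y axis) of each member by hours after activation (x axis, not to scale). Points are single arrays, with circles for experiment 1 and triangles for experiment 2, and lines join the means of the 2 arrays. *Cish* and *Socs1* run higher in Th2 and Th1/2 cells up to 48 h, *Socs2* rises in all cultures between 48 and 73 h, and *Socs3* is lowest in every culture between 12 and 35 h.

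All 4 genes changed over time in all 4 cultures. By limma's F-test of 9 differences from 0 h in each culture, the highest adjusted p of the family was 5.49e-07, for *Socs1* in Th1 cells. Such a change was common, since 65.2% of all genes passed in Th0, 64.3% in Th1, 65.7% in Th2, and 68.7% in Th1/2 cells. What set the members apart from each other was the share of variance that went with time. Over the 72 arrays after 0 h, time points held 96.5% of the variance of *Socs2* and 83.4% of that of *Socs3*, but 42.6% of that of *Cish* and 41.3% of that of *Socs1*. The cultures held 40.0% for *Cish*, 39.1% for *Socs1*, 8.99% for *Socs3*, and 1.23% for *Socs2*. Culture differences that varied between time points held a further 12.9% for *Cish*, 10.1% for *Socs1*, 4.70% for *Socs3*, and 1.68% for *Socs2*. The arrays within a condition held between 0.582% for *Socs2* and 9.53% for *Socs1*.

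*Cish* encodes CIS, the first member of the family to be described, which binds the IL-2 receptor and dampens STAT5 signals. It rose within 3 h in every culture, most in those with added IL-4. In naive cells its 2 arrays stood at 11.76 and 11.81. At 3 h it stood at 13.66 and 14.01 in Th0, 13.82 and 13.98 in Th1, 15.03 and 15.19 in Th2, and 15.08 and 15.00 in Th1/2 cells. Neither of the cultures without IL-4 overlapped with either of those with IL-4, and none overlapped with naive cells. The rise over 0 h was 4.14-fold in Th0 cells (2.05 on the log2 scale, SE 0.20, adjusted p = 5.46e-11) and 4.34-fold in those of Th1 (adjusted p = 2.18e-11). It was 9.55-fold in Th1/2 cells (3.26, adjusted p = 1.25e-16) and 10.004-fold in Th2 cells (3.32, adjusted p = 5.9e-17). At 3 h, 29% of all genes differed from 0 h in Th0, 29.4% in Th1, and 32.1% in both Th1/2 and Th2 cells.

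After the peak *Cish* declined and then rose again. At 24 h the arrays read 12.64 and 12.80 in Th0, 12.73 and 12.61 in Th1, 14.01 and 14.10 in Th2, and 14.04 and 13.83 in Th1/2 cells. The lower pair of cultures was still 1.91-fold (Th0) and 1.85-fold (Th1) above naive cells, with adjusted p of 1.09e-04 and 2.18e-04, and *Cish* stayed called above 0 h at all 9 time points of each culture, while over these 36 comparisons between 29% and 45.5% of all genes were called. By 120 h the cultures had come close together, at 14.34 and 14.50 in Th0, 14.26 and 14.55 in Th1, 14.52 and 15.14 in Th2, and 14.41 and 15.16 in Th1/2 cells. The rise over 0 h was then between 6.14-fold in Th1 and 8.24-fold in Th2 cells.

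The difference between Th2 and Th1 cells in *Cish* was larger in the early and middle windows than late. Over the early window it ranged from 14.22 to 15.19 (median 14.70) in Th2 and from 13.21 to 13.98 (median 13.53) in Th1 cells, and the ranges did not overlap. Th1/2 cells ranged from 14.37 to 15.08 (median 14.83) and Th0 cells from 13.03 to 14.01 (median 13.50). *Cish* was 2.23-fold higher in Th2 than in Th1 cells (1.16, SE 0.11, adjusted p = 1.06e-09), with 1.18 in experiment 1 and 1.14 in experiment 2. Of all genes, 1.48% differed between Th2 and Th1 cells in this window, and 2 of the 4 members, *Cish* and *Socs1*, were called. With the experiment as a replicate block within each time point, 517 in place of 205 genes were called and the same 2 members.

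In the middle window the levels of *Cish* lay between 14.00 and 14.10 in Th2, 13.83 and 14.04 in Th1/2, 12.61 and 12.96 in Th1, and 12.34 and 12.84 in Th0 cells, again without overlap between the cultures with and without IL-4. Th2 cells stood 2.46-fold above Th1 cells (1.30, SE 0.14, adjusted p = 4.57e-09). Here all 4 members were called, against 3.72% of all genes. Late, the ranges overlapped, with 14.30 to 15.14 (median 14.50) in Th2 and 13.51 to 14.55 (median 14.12) in Th1 cells. The late difference was 1.42-fold (0.50, SE 0.10, adjusted p = 1.11e-04). All 4 members were called late as well, where 20.4% of all genes differed, *Cish*, *Socs1*, and *Socs2* being higher and *Socs3* lower in Th2 cells.

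*Cish* in Th1/2 cells was close to that in Th2 cells. The 2 cultures differed by 0.05 early (95% interval -0.18 to 0.28), by -0.07 in the middle window (-0.36 to 0.21), and by -0.11 late (-0.31 to 0.09). Th1 and Th0 cells differed by 0.05 early (-0.18 to 0.28), 0.07 in the middle window (-0.21 to 0.35), and -0.14 late (-0.34 to 0.06). None of these 6 differences was called by limma, and none had an unadjusted p under 0.05. At single time points the Th2 cells were called above Th1 cells at 3, 6, 12, 24, 35, and 48 h, but not at the 3 later ones. Of all genes, 0.876% (3 h), 0.384% (6 h), 0.239% (12 h), 1.41% (24 h), 1.6% (35 h), and 3.13% (48 h) were called at the former, and 7.55% (73 h), 8.58% (96 h), and 6.69% (120 h) at the latter. The difference of Th2 minus Th1 in *Cish* was above 0 at 9 of 9 time points. At 73 and 120 h its unadjusted p in limma was under 0.05. Without the Th1 cells of experiment 1, *Cish* was called at 3 time points.

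SOCS1 is the most potent inhibitor of the family, with a region that blocks the JAK kinases directly. *Socs1* followed *Cish* in its course, though with more spread between arrays. It stood at 7.68 and 7.51 in naive cells. At 3 h it stood at 9.25 and 8.89 in Th0, 8.98 and 9.18 in Th1, 9.82 and 9.99 in Th2, and 10.21 and 10.11 in Th1/2 cells. The arrays with IL-4 lay above all arrays without it, and every activated array lay above the naive ones. *Socs1* rose over 0 h by 2.78-fold in Th0 (1.48, SE 0.27, adjusted p = 2.37e-05), 2.79-fold in Th1, 4.95-fold in Th2, and 5.92-fold in Th1/2 cells (2.56, adjusted p = 2.97e-10).

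*Socs1* was then back near the naive level in Th0 cells. At 24 h it read 7.60 and 7.52 in Th0, 7.92 and 7.98 in Th1, 9.01 and 9.18 in Th2, and 9.46 and 8.55 in Th1/2 cells. The difference from 0 h was -0.04 in Th0 (adjusted p = 0.937) and 0.35 in Th1 (adjusted p = 0.305), neither of which was called, but 1.41 in Th1/2 (adjusted p = 2.04e-05) and 1.5 in Th2 cells (adjusted p = 8.12e-06). At this time 43.6% of all genes differed from 0 h in Th0, 45.5% in Th1, 43.3% in Th2, and 45.2% in Th1/2 cells. By 120 h *Socs1* was again above naive cells in all cultures, from 2.63-fold in Th1 (1.39, adjusted p = 3.95e-05) to 4.39-fold in Th2 cells (2.13, adjusted p = 9.71e-09).

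Between Th2 and Th1 cells *Socs1* differed in all 3 windows. In the middle window its levels were 8.75 to 9.18 in Th2 and 7.51 to 8.66 in Th1 cells, without overlap. The difference was 2.02-fold (1.01, SE 0.19, adjusted p = 2.78e-04), with 0.60 in experiment 1 and 1.43 in experiment 2. It did not pass without the Th2 cells of experiment 2 (0.87, adjusted p = 0.0553).

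The early and late differences of *Socs1* were smaller and their ranges overlapped. Early, *Socs1* ranged from 8.57 to 9.99 (median 9.08) in Th2 and from 8.05 to 9.18 (median 8.56) in Th1 cells, a 1.58-fold difference (0.66, SE 0.15, adjusted p = 0.0105). Late, it ranged from 8.78 to 9.83 (median 9.46) in Th2 and from 8.23 to 9.57 (median 8.95) in Th1 cells, a 1.32-fold difference (0.41, SE 0.13, adjusted p = 0.0235). The early call was lost without the Th2 cells of experiment 1 (0.78, adjusted p = 0.0545) or of experiment 2 (0.54, adjusted p = 0.412), and with 12 h left out of the window (0.67, adjusted p = 0.0622). The late call was lost without the Th2 cells of experiment 1 (0.30, adjusted p = 0.319), without the Th1 cells of experiment 2 (0.14, adjusted p = 0.61), and with 48 h left out of the window (0.41, adjusted p = 0.0573). At single time points *Socs1* was called higher in Th2 than in Th1 cells at 24 h alone, by 1.15 (SE 0.27, adjusted p = 0.0111). This was not called without the Th1 cells of experiment 1 (1.12, adjusted p = 0.0502), or without the Th2 cells of experiment 1 (1.23, adjusted p = 0.127) or experiment 2 (1.06, adjusted p = 0.242). With the experiment as a replicate block within each time point it was called at 4 time points, and without the Th1 cells of experiment 1 at 2.

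**Figure D2:**
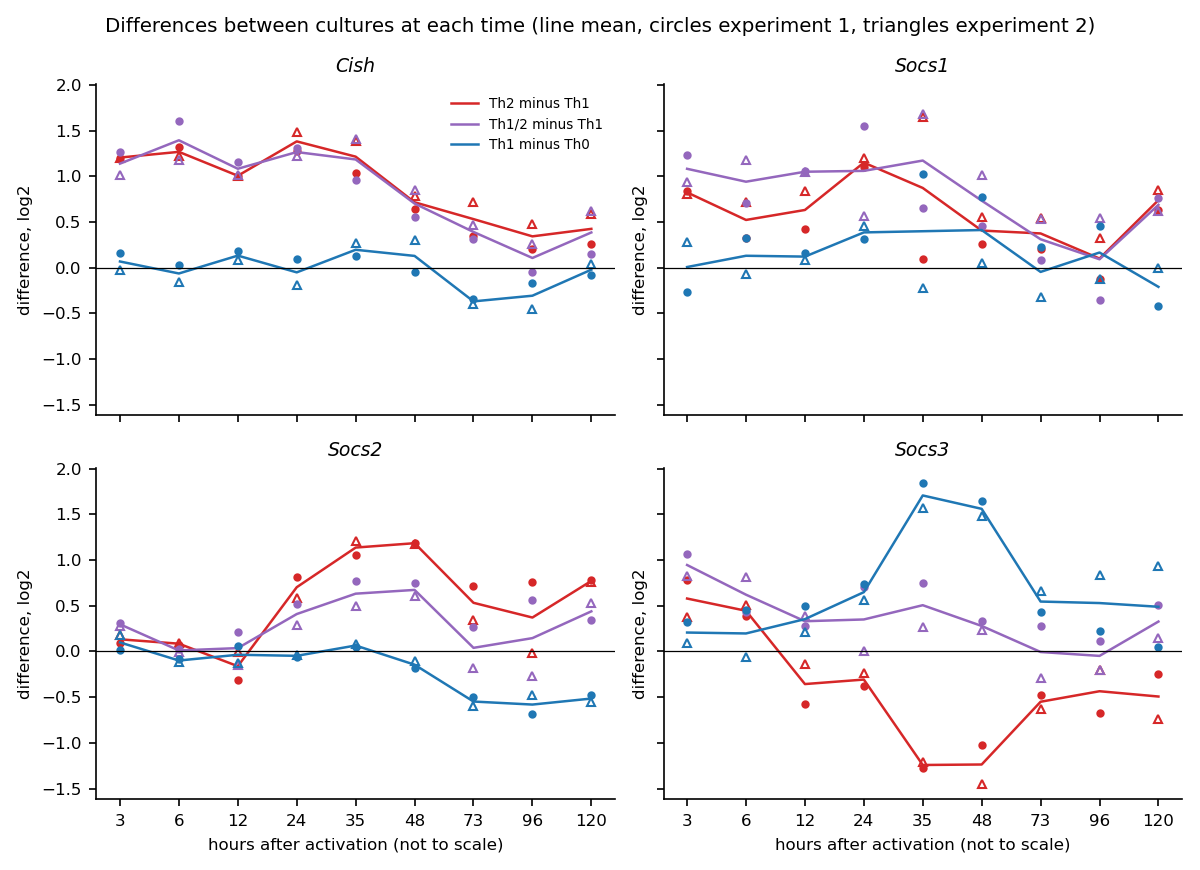
Differences between cultures in log2 units (y axis) by hours after activation (x axis, not to scale), with lines for the mean and points for experiments 1 (circles) and 2 (triangles). For *Cish*, Th2 minus Th1 and Th1/2 minus Th1 lie close to each other, with Th1 minus Th0 near 0 up to 48 h. For *Socs3*, Th1 minus Th0 is highest at 35 and 48 h (1.71 and 1.56) and Th2 minus Th1 lowest there (-1.24 at both).

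*Socs2* encodes a regulator best known for restraining growth hormone signals, which also limits Th2 responses in mice. It was the member that changed most, with a span of 22.2-fold (Th1) to 33.8-fold (Th2) between its lowest and highest condition means in a culture, against at most 10.004-fold for *Cish*, 9.81-fold for *Socs3*, and 5.92-fold for *Socs1*. In naive cells it stood at 9.56 and 9.62. It rose little by 3 h, to 10.08 and 10.0003 in Th0, 10.10 and 10.18 in Th1, 10.19 and 10.36 in Th2, and 10.41 and 10.46 in Th1/2 cells. All activated arrays lay above the naive ones, yet the rise was called in 3 of the 4 cultures: it was 1.79-fold in Th1/2 (0.84, SE 0.18, adjusted p = 2.08e-04), 1.60-fold in Th2 (adjusted p = 0.00234), and 1.46-fold in Th1 cells (adjusted p = 0.0163). In Th0 cells the difference was 0.45 (adjusted p = 0.0552). It was called there after normexp background correction with quantile normalization (adjusted p = 0.0457), with the experiment as a replicate block (adjusted p = 0.0396), without the 2 arrays that stood apart (adjusted p = 0.0393), and without the Th1 cells of either experiment (adjusted p = 0.0391 for each). The rise in Th1 cells was not called without the Th1 cells of experiment 2 (0.50, adjusted p = 0.0689), or without the naive cells of experiment 1 (0.51, adjusted p = 0.0929) or experiment 2 (0.58, adjusted p = 0.0517). The rise in Th2 cells was not called without the Th2 cells of experiment 2 (0.59, adjusted p = 0.0548).

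*Socs2* then rose sharply between 48 and 73 h in all 4 cultures. At 48 h it read 11.07 and 10.83 in Th0, 10.89 and 10.73 in Th1, 12.08 and 11.90 in Th2, and 11.63 and 11.33 in Th1/2 cells. At 73 h it read 13.93 and 14.40 in Th0, 13.44 and 13.80 in Th1, 14.15 and 14.15 in Th2, and 13.70 and 13.62 in Th1/2 cells. The lowest array at 73 h lay above the highest at 48 h. This step was 9.29-fold in Th0 (3.22, SE 0.18, adjusted p = 3.11e-17), 7.02-fold in Th1 (2.81, adjusted p = 3.8e-15), 4.47-fold in Th2 (2.16, adjusted p = 4.75e-12), and 4.53-fold in Th1/2 cells (2.18, adjusted p = 8.68e-12).

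A rise over this step was called for 6.34% of all genes in Th0, 5.36% in Th1, 6.8% in Th2, and 4.69% in Th1/2 cells. Ordered by size, that of *Socs2* was number 4 of 13817 genes in Th0, 7 in Th1, 24 in Th2, and 18 in Th1/2 cells. The step was chosen for description after its values were seen, so its rank is no test. At 120 h *Socs2* stood 28.3-fold above naive cells in Th0 (4.82, adjusted p = 1.72e-24), 19.8-fold in Th1, 33.8-fold in Th2 (5.08, adjusted p = 4.06e-25), and 26.8-fold in Th1/2 cells.

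The second probe of *Socs2* was dim. Its condition means lay between 6.32 and 7.20, around the median of all values, against 9.59 to 14.67 for the probe used. Over the 37 condition means, which share arrays, the 2 probes had an r of 0.859, and the second lay above its 0 h level in 12 of 12 conditions from 73 h on. On the second probe the rise from 48 to 73 h was 0.16 in Th0, 0.07 in Th1, and 0.15 in Th1/2 cells, none of them called, and 0.43 in Th2 cells (adjusted p = 0.00352). On it Th2 and Th1 cells differed by -0.03 in the middle window (adjusted p = 0.951) and by 0.20 late (adjusted p = 0.00295).

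Between Th2 and Th1 cells *Socs2* was not called early. It ranged from 10.19 to 10.66 in Th2 and from 10.10 to 10.67 in Th1 cells, a difference of 0.02 (95% interval -0.19 to 0.23). In the middle window the cultures with IL-4 moved up, with 11.35 to 11.66 in Th2, 10.94 to 11.24 in Th1/2, 10.45 to 10.77 in Th1, and 10.36 to 10.80 in Th0 cells. Th2 cells lay above Th1/2 cells and these above both others, without overlap. Th2 cells stood 1.89-fold above Th1 (0.92, SE 0.13, adjusted p = 1.24e-06), while Th1/2 cells fell between, 1.43-fold above Th1 (0.52, adjusted p = 0.00971), a comparison in which 2.78% of all genes were called. The latter call was lost without the Th1 (0.50, adjusted p = 0.0761) or the Th1/2 cells (0.42, adjusted p = 0.233) of experiment 1. The difference of Th1/2 from Th2 cells, -0.40, was not called (adjusted p = 0.231), but it was with the experiment as a replicate block within time points (adjusted p = 0.0229).

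Late, *Socs2* was lowest in Th1 cells. It ranged from 11.90 to 14.73 (median 14.29) in Th2, 11.33 to 14.50 (median 13.94) in Th1/2, 10.83 to 14.94 (median 14.33) in Th0, and 10.73 to 14.47 (median 13.73) in Th1 cells, and the ranges overlapped as each spans the rise. Th2 cells stood 1.64-fold above Th1 (0.71, SE 0.09, adjusted p = 2.46e-08), and Th1 cells lay 0.45 below Th0 cells on the log2 scale (difference -0.45, SE 0.09, adjusted p = 5.31e-04). The latter was not called without the Th0 cells of experiment 2 (-0.32, adjusted p = 0.0796) or the Th1 cells of experiment 1 (-0.30, adjusted p = 0.104). Between Th1 and Th0 cells 5.8% of all genes differed late, *Socs2* and *Socs3* among the members. At single time points Th2 minus Th1 was called at 24, 35, 48, and 120 h, and at 2 of these without the Th2 cells of experiment 2.

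*Socs3* encodes an inhibitor that binds the IL-6 receptor chain gp130 and also acts on IL-12 signals. In naive cells it stood at 11.54 and 11.62. At 3 h it read 10.83 and 11.37 in Th0, 11.15 and 11.46 in Th1, 11.93 and 11.84 in Th2, and 12.22 and 12.29 in Th1/2 cells. The arrays with IL-4 lay above the naive ones and those without it below, although limma called none of the 4 differences from 0 h, of which that in Th1/2 cells had an unadjusted p under 0.05, with 0.67 in Th1/2 (adjusted p = 0.0943) and -0.48 in Th0 cells (adjusted p = 0.283) as the extremes.

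By 24 h *Socs3* had fallen in all 4 cultures. It read 8.58 and 8.60 in Th0, 9.31 and 9.16 in Th1, 8.93 and 8.93 in Th2, and 10.01 and 9.16 in Th1/2 cells, all below the naive arrays. The difference from 0 h was -2.99 in Th0 (7.94-fold lower, SE 0.31, adjusted p = 6.11e-11), -2.34 in Th1 (5.07-fold lower, adjusted p = 2.02e-08), -2.65 in Th2 (6.27-fold lower, adjusted p = 1.28e-09), and -1.99 in Th1/2 cells (3.98-fold lower, adjusted p = 5.76e-07).

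*Socs3* recovered between 35 and 48 h. At 35 h it read 8.86 and 8.60 in Th0, 10.70 and 10.17 in Th1, 9.42 and 8.97 in Th2, and 11.45 and 10.44 in Th1/2 cells. At 48 h it read 10.74 and 10.53 in Th0, 12.38 and 12.00 in Th1, 11.36 and 10.55 in Th2, and 12.71 and 12.23 in Th1/2 cells. Each culture rose in both experiments, and at 48 h the arrays of cultures with IL-12 lay above all naive arrays while those without IL-12 lay below. The step from 35 to 48 h was 3.73-fold in Th0 (1.90, SE 0.31, adjusted p = 1.11e-04), 3.37-fold in Th1 (adjusted p = 3.15e-04), 3.38-fold in Th2 (adjusted p = 1.45e-04), and 2.88-fold in Th1/2 cells (adjusted p = 6.04e-04). A rise over this step was called for 3.71% of all genes in Th0, 3.46% in Th1, 5.46% in Th2, and 5.93% in Th1/2 cells, and the step was also chosen after its values were seen. It was not called without the cells of experiment 2 in Th1 (1.68, adjusted p = 0.102) and in Th1/2 (1.26, adjusted p = 0.101), or without those of experiment 1 in Th2 cells (1.58, adjusted p = 0.0577).

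At 120 h *Socs3* was 1.94-fold above naive cells in Th1/2 cells (0.95, SE 0.31, adjusted p = 0.0114), with 12.53 in both arrays. This was not called without the naive cells of experiment 1 (0.91, adjusted p = 0.0646). The other cultures did not differ from 0 h in a call at 120 h, with 0.63 in Th1 (adjusted p = 0.116), 0.14 in Th0, and 0.13 in Th2 cells (adjusted p = 0.796 for both). Over the 9 time points *Socs3* was called above 0 h at 4 in Th1/2 and 2 in Th1 cells (73 and 96 h). In Th0 and Th2 cells it was so at 0. It was called below 0 h at 3 time points in Th1/2, 4 in Th1, 5 in Th0, and 4 in Th2 cells. Over all 36 comparisons with 0 h, between 29% and 45.5% of all genes were called. At 120 h the share of genes that differed from 0 h was 33.4% in Th0, 35% in Th1, 36.4% in Th2, and 37.2% in Th1/2 cells.

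*Socs3* was the member in which Th1 cells lay above Th2 cells. In the middle window it ranged from 9.16 to 10.70 in Th1 and from 8.93 to 9.42 in Th2 cells, which overlap, and the difference of Th2 minus Th1 was -0.77 (SE 0.22, adjusted p = 0.0295). Leaving out the Th1 cells of experiment 1 (-0.61, adjusted p = 0.566) or experiment 2 (-0.94, adjusted p = 0.0532), or the Th2 cells of experiment 1 (-0.89, adjusted p = 0.0662) or experiment 2 (-0.66, adjusted p = 0.277), each ended this call. Late, *Socs3* ranged from 12.00 to 12.59 (median 12.36) in Th1, 12.23 to 12.71 (median 12.46) in Th1/2, 10.53 to 11.99 (median 11.82) in Th0, and 10.55 to 12.40 (median 11.71) in Th2 cells. The ranges of Th1 and Th1/2 cells lay above that of Th0 cells, and the highest array of Th2 cells reached into both.

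The late difference of Th2 minus Th1 in *Socs3* was -0.68 (SE 0.15, adjusted p = 7.58e-04), and it stayed called without either experiment of either culture. Th1 cells stood 1.72-fold above Th0 (0.78, SE 0.15, adjusted p = 4.39e-04) and Th1/2 cells 1.76-fold above Th2 (0.82, SE 0.15, adjusted p = 2.92e-04), a comparison in which 4.13% of all genes were called, among them *Socs2*, lower in Th1/2 cells (-0.39, adjusted p = 0.0037). The call of *Socs2* was lost without the Th1/2 cells of experiment 2 (-0.38, adjusted p = 0.0715) or the Th2 cells of experiment 1 (-0.39, adjusted p = 0.0702). With 48 h left out of the late window neither difference of *Socs3* passed, at 0.52 (adjusted p = 0.0739) and 0.58 (adjusted p = 0.0507). Th1/2 and Th1 cells differed by 0.14 (95% interval -0.17 to 0.45). At single time points *Socs3* was called lower in Th2 than in Th1 at 35 h (-1.24, adjusted p = 0.018) and 48 h (-1.24, adjusted p = 0.012). Without the Th1 cells of experiment 1 neither was called (-0.98, adjusted p = 0.68, and -1.05, adjusted p = 0.394), nor was either without the Th2 cells of experiment 2 (-1.01, adjusted p = 0.331, and -0.83, adjusted p = 0.324).

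Before 48 h few genes at all separated Th1 from Th0 cells, and *Socs3* was one of them. In the middle window, where it ranged from 8.58 to 8.86 in Th0 and without overlap from 9.16 to 10.70 in Th1 cells, it stood 2.26-fold higher in Th1 (1.18, SE 0.22, adjusted p = 0.0118), and 0.0651% of all genes were called. At 35 h *Socs3* was 3.26-fold higher (1.71, SE 0.31, adjusted p = 0.0257) and the single gene called, which is 0.00724% of the genes. At 48 h it was 2.95-fold higher (1.56, adjusted p = 0.00754), where 0.246% were called. Leaving out experiment 1 of Th0 (1.24, adjusted p = 0.248), experiment 2 of Th0 (1.12, adjusted p = 0.275), or experiment 1 of Th1 (1.01, adjusted p = 0.999) ended the call of the middle window. The calls at 35 and 48 h were lost without either experiment of either culture, with differences of 1.44 to 1.97 at 35 h and 1.37 to 1.75 at 48 h. Between Th1/2 and Th2 cells, where 0.478% of all genes differed in the middle window, *Socs3* was 2.30-fold higher in Th1/2 (1.202, SE 0.22, adjusted p = 0.00109). That call was lost without the Th1/2 cells of experiment 1 (0.74, adjusted p = 0.353) or the Th2 cells of experiment 2 (1.09, adjusted p = 0.057).

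The 4 cultures cross added IL-4 with added IL-12, so each window can be split into an IL-4 term (mean of Th2 and Th1/2 minus mean of Th0 and Th1), an IL-12 term (mean of Th1 and Th1/2 minus mean of Th0 and Th2), and their non-additivity (Th1/2 minus Th1 minus Th2 plus Th0). Anti-IL-4 was in both cultures without added IL-4, and anti-IL-12 and anti-IFN-γ in both without added IL-12, so each term also holds these antibodies. *Cish* and *Socs1* went with the IL-4 term, and *Socs3* early with the IL-4 term and later with the IL-12 term. *Socs2* went with the IL-4 term in the middle window and late with both, in opposite directions. The IL-4 term of *Cish* was 1.21 early (SE 0.08, adjusted p = 4.93e-15), 1.30 in the middle window (SE 0.10, adjusted p = 1.15e-13), and 0.38 late (SE 0.07, adjusted p = 2.44e-05). That of *Socs1* was 0.89 early (SE 0.11, adjusted p = 8.94e-08), 1.26 in the middle window (SE 0.13, adjusted p = 1.39e-09), and 0.47 late (SE 0.09, adjusted p = 8.84e-05). All 6 values had the same sign in both experiments. *Cd79b*, a B cell marker, had IL-4 terms of 0.49 early (adjusted p = 0.0493) and 0.91 late (adjusted p = 2.78e-07), and its part in these results was not tested. *Ms4a1*, the other B cell marker tested, was not called for this term early or late.

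For *Socs2* the IL-4 term was 0.06 early (95% interval -0.09 to 0.21), 0.72 in the middle window (SE 0.09, adjusted p = 5.89e-08), and 0.30 late (SE 0.06, adjusted p = 2.24e-04). The late value was not called with 48 h left out (0.11, adjusted p = 0.308). For *Socs3* it was 0.55 early (SE 0.13, adjusted p = 0.00315), 0.41 in the middle window (SE 0.15, adjusted p = 0.105), and 0.12 late (95% interval -0.10 to 0.34). The early value was not called without the Th0 (0.41, adjusted p = 0.12) or the Th1 cells (0.49, adjusted p = 0.0667) of experiment 1. The middle value was called without the Th1/2 cells of experiment 2 (0.65, adjusted p = 0.00699) and with the experiment as a replicate block within time points (adjusted p = 0.00419). An IL-4 term was called for 4.43% of all genes early, 7.02% in the middle window, and 30.3% late, against 3, 3, and 3 of the 4 members.

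The IL-12 term of *Socs3* was 0.33 early (95% interval 0.08 to 0.58, adjusted p = 1), 1.19 in the middle window (SE 0.15, adjusted p = 2.15e-06), and 0.80 late (SE 0.11, adjusted p = 4.68e-07). The late IL-12 term of *Socs2* had the opposite sign, -0.42 (SE 0.06, adjusted p = 3.66e-06), with -0.42 in experiment 1 and -0.41 in experiment 2. For *Cish* the IL-12 term lay between -0.12 and 0.05 over the windows and for *Socs1* between 0.07 and 0.25, and none of these was called, although the early value of *Socs1* (0.23) had an unadjusted p under 0.05, as had that of *Socs3*. An IL-12 term was called for 0.282% of all genes early, 0.651% in the middle window, and 8.08% late, against 0, 1, and 2 of the 4 members. No member was called for non-additivity in any window. Early and in the middle window limma called it for 0 of 13817 genes (0%), with 421 and 372 genes at an unadjusted p under 0.05, and late for 1.94%. The intervals remained wide, for example -0.83 to 0.25 for *Socs1* and -0.77 to -0.05 for *Socs2*, both in the middle window. *Socs2* there was the one member value with an unadjusted p under 0.05, at an adjusted p of 0.999.

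**Figure D3:**
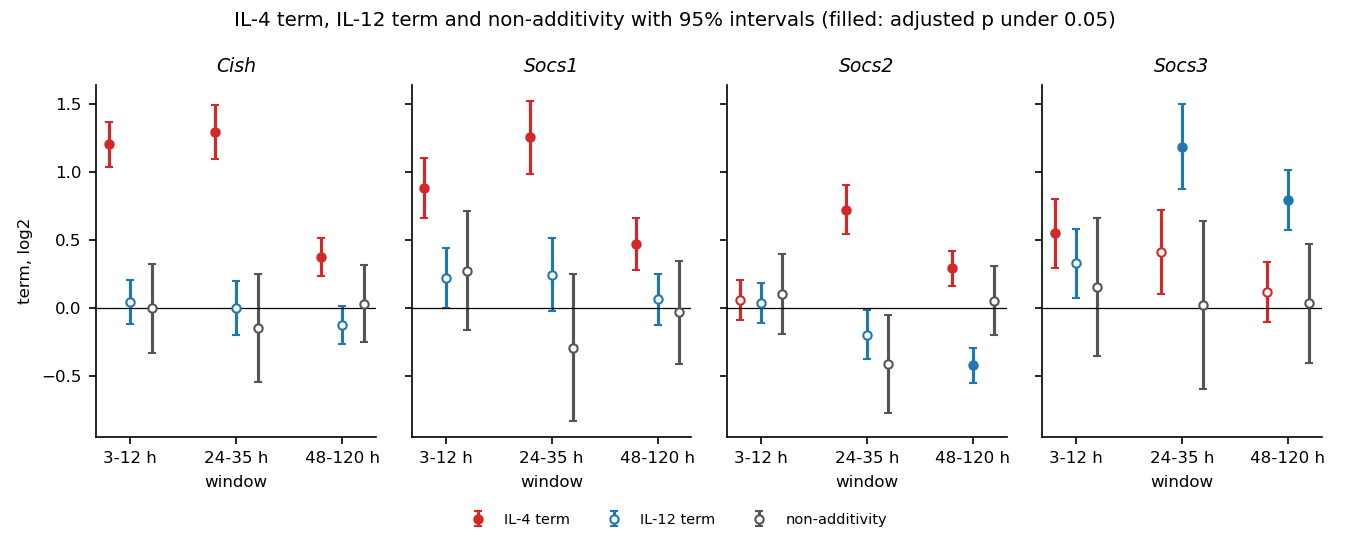
IL-4 term, IL-12 term, and non-additivity in log2 units (y axis) of each member in the early, middle, and late window (x axis). Bars are 95% intervals and filled points have an adjusted p under 0.05. The IL-4 term of *Cish* and *Socs1* is filled in all 3 windows and the IL-12 term of *Socs3* in the last 2, while no point for non-additivity is filled.

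The difference between Th2 and Th1 cells itself changed between the early and late window in 3 members. It grew by 0.70 for *Socs2* (SE 0.14, adjusted p = 2.79e-04). It fell by 0.66 for *Cish* (SE 0.15, adjusted p = 0.00217) and by 0.90 for *Socs3* (SE 0.23, adjusted p = 0.00787), where the early difference was 0.22 (not called) and the late one -0.68. For *Socs1* the change was -0.25 (95% interval -0.66 to 0.16). Such a change was called for 8.75% of all genes. The call for *Socs2* was lost without the Th2 cells of experiment 1 (0.56, adjusted p = 0.0545), and that for *Cish* without the Th1 cells of experiment 1 (-0.50, adjusted p = 0.155). The call for *Socs3* was lost without the Th1 cells of experiment 1 (-0.85, adjusted p = 0.113) or experiment 2 (-0.95, adjusted p = 0.0533), without the Th2 cells of experiment 2 (-0.75, adjusted p = 0.108), and with 48 h left out of the late window (-0.71, adjusted p = 0.061).

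Correlations across conditions show which members moved alike. They are descriptions, since the conditions share experiments and neighbouring times. Over the 37 condition means, *Socs1* and *Cish* had an r of 0.936 (Spearman's rho 0.864), and each was the gene most like the other among 13817. The other pairs of members lay between 0.456 and 0.618. Subtracting the mean of the 4 cultures at each time point leaves 36 deviations that hold the differences between cultures only. On these, *Socs1* and *Cish* had an r of 0.937, *Socs2* and *Cish* 0.615, *Socs1* and *Socs2* 0.587, *Socs1* and *Socs3* 0.541, *Socs3* and *Cish* 0.381, and *Socs2* and *Socs3* -0.10. The deviation of *Socs1* was above 0 at 9 of 9 time points in both Th2 and Th1/2 cells, and that of *Socs3* at 9 of 9 in Th1/2, 7 in Th1, 2 in Th2, and 0 in Th0 cells.

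**Figure D4:**
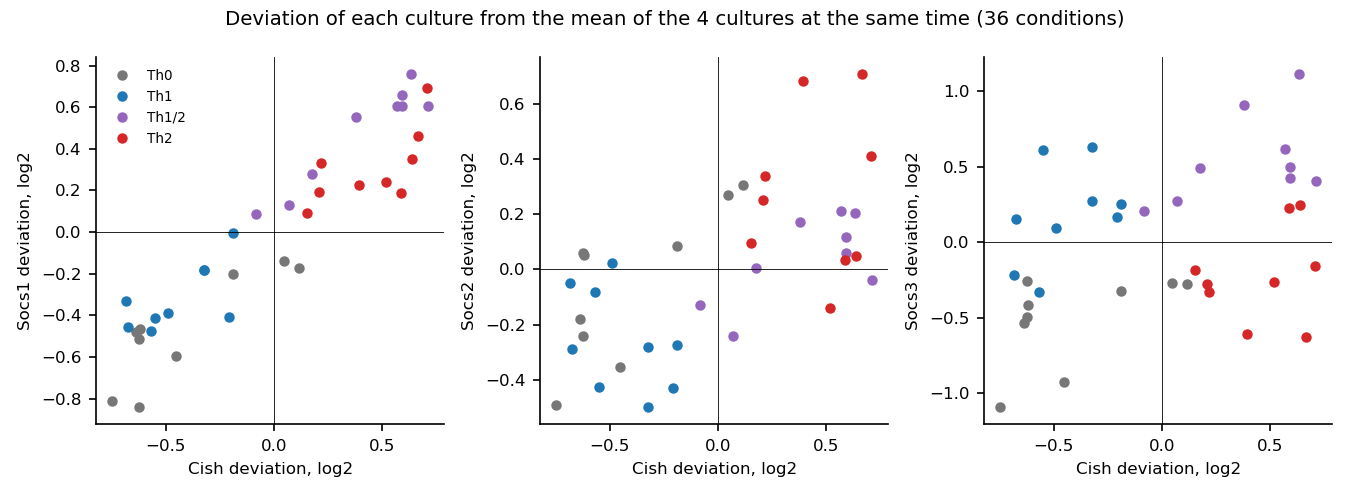
Deviation of *Socs1*, *Socs2*, and *Socs3* (y axes, log2) against that of *Cish* (x axes, log2) from the mean of the 4 cultures at the same time, for 36 conditions colored by culture. *Socs1* lies along a line with *Cish* (r = 0.937). In the panel of *Socs3* (r = 0.381), Th1/2 cells lie at the upper right, with Th2 cells mostly below and Th1 cells mostly above 0.

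Outside the family, the genes whose 37 condition means were most like *Cish* were, after *Socs1*, the ubiquitin ligase gene *Rnf19b* (r = 0.847), the prion protein gene *Prnp* (0.830), the kinase gene *Mapkapk3* (0.802), and the Rab GTPase gene *Rab1a* (0.782). For *Socs1* they were, after *Cish*, *Rnf19b* (0.884), *Prnp* (0.856), *Rab1a* (0.785), and the creatine transporter gene *Slc6a8* (0.780). For *Socs2* they were *Itih5* (0.959), the fucosyltransferase gene *Fut4* (0.959), *Pimreg* (0.956), the potassium channel gene *Kcnk5* (0.955), and the pyruvate carboxylase gene *Pcx* (0.955). For *Socs3* they were *Gpr146* (0.923), the IL-10 receptor gene *Il10ra* (0.907), *Gtpbp2* (0.904), *Pgs1* (0.895), and the kinase gene *Clk3* (0.888). With Spearman's rho in place of r, 3 of the 5 genes closest to *Cish*, 3 for *Socs1*, 1 for *Socs2*, and 2 for *Socs3* were shared.

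On the deviations between cultures the closest genes were others, apart from *Socs1*, *Cish*, and *Mapkapk3*. For *Cish* they were the semaphorin gene *Sema4b* (r = 0.945), *Socs1* (0.937), *Igsf23* (0.912), the chemokine gene *Ccl17* (0.904), and *Mapkapk3* (0.903). For *Socs1* they were *Cish* (0.937), the calcineurin subunit gene *Ppp3cc* (0.910), *Pros1* (0.910), *Fcer2a*, which encodes the IgE receptor CD23 (0.904), and *Sema4b* (0.903). For *Socs2* they were *Spx* (0.864), *Zfp362* (0.858), the purine receptor gene *P2ry1* (0.834), the growth factor gene *Fgf2* (0.820), and *Lrrc1* (0.792). For *Socs3* they were the cytokine gene *Il21* (0.845), the stress response gene *Gadd45g* (0.840), *Csrnp1* (0.815), the NF-κB regulator gene *Bcl3* (0.813), and the deubiquitinase gene *Otulin* (0.798). With Spearman's rho in place of r, 3 of these 5 genes for *Cish*, 3 for *Socs1*, 1 for *Socs2*, and 4 for *Socs3* were shared.

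The upstream and downstream genes of the pathway were compared between Th2 and Th1 cells in the same fit, where the members moved from -0.68 to 0.71 late. The counts of each list stand beside 20.4% of all genes called late and 1.48% early. Among JAK kinases and STAT factors, 9 listed genes were tested, and late 2 were higher, 2 lower, and 5 not called in Th2 cells (median of the list 0.08, of all genes -0.004). *Jak2* was higher by 1.16 (SE 0.10, adjusted p = 7.67e-13) and *Stat5a*, which encodes a factor that acts on *Cish*, by 0.43 (adjusted p = 5.45e-04). *Stat4*, the factor of the IL-12 signal, was lower, with -0.86 (adjusted p = 1.85e-10), as was *Stat2*, with -0.88 (adjusted p = 0.0151). Early, *Stat5a* alone was called (0.59, adjusted p = 5.33e-04). *Stat5b* did not pass the filter on low values.

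Of the cytokine receptor chains, 15 of 17 were tested, with 1 higher, 4 lower, and 10 not called late (median -0.02), and 0 called early by limma, where 3 had an unadjusted p under 0.05. *Il4ra*, the IL-4 receptor chain, was higher in Th2 cells by 1.42 (adjusted p = 3.44e-12). *Il12rb2*, the chain of the IL-12 receptor that binds STAT4, was lower, with -3.05 (adjusted p = 4.52e-23), followed by *Il10rb* (-0.87, adjusted p = 8.71e-05) and *Ifngr1* (-0.84, adjusted p = 4.77e-09). Of the T cell cytokines, 12 of 13 were tested, with 5 higher, 3 lower, and 4 not called late (median -0.09). *Il4* (3.69), *Lif* (1.43), and *Il10* (1.32) were highest in Th2 cells, and *Ifng* (-4.89), *Il21* (-0.67), and *Osm* (-0.55) lowest. Early, limma called 0 of the 12, with 1 at an unadjusted p under 0.05.

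Other SOCS genes, ubiquitin ligase subunits, and other inhibitors of JAK-STAT signals were together called late in 4 of 19 genes tested. This is about the share of all genes, 20.4%. Of the other SOCS genes and the ubiquitin ligase subunits, 8 of 9 were tested and *Socs4* alone was called late (-0.32, SE 0.09, adjusted p = 0.0088), with 7 not called (median -0.06), and 0 were called early by limma, where 0 had an unadjusted p under 0.05. Of other inhibitors of JAK-STAT signals, 11 of 11 were tested, and late *Pias4* was higher (0.27, adjusted p = 0.0179) while *Usp18*, which restrains the type I interferon receptor (-2.46, SE 0.76, adjusted p = 0.0145), and *Ptpn11* (-0.23, adjusted p = 0.00478) were lower in Th2 cells, with 8 not called (median -0.07). Early, limma called 0 of them, with 1 at an unadjusted p under 0.05.

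Known STAT5 targets were called late in 2 of 9 genes tested, beside 20.4% of all genes, and early in 1 of 9, beside 1.48%. Of 9 tested out of 10, late 0 were higher and 2 lower, the growth regulator *Myc* (-0.59, adjusted p = 0.0381) and *Osm*, with 7 not called (median -0.13). Early the survival gene *Bcl2* alone was called, higher in Th2 cells by 0.77 (SE 0.17, adjusted p = 0.0075). The targets of IFN-γ, all 12 tested, were lower in Th2 cells late in 8 and not called in 4 (median -0.75), led by the guanylate binding protein genes *Gbp3* (-2.55, adjusted p = 3.37e-18) and *Gbp2* (-2.48, adjusted p = 1.52e-17) and by *Irf8* (-1.27, adjusted p = 1.57e-06). Early 2 of the 12 were lower, *Irf8* (-1.01, adjusted p = 0.00563) and *Igtp* (-1.004, adjusted p = 9.92e-07).

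**Figure D5:**
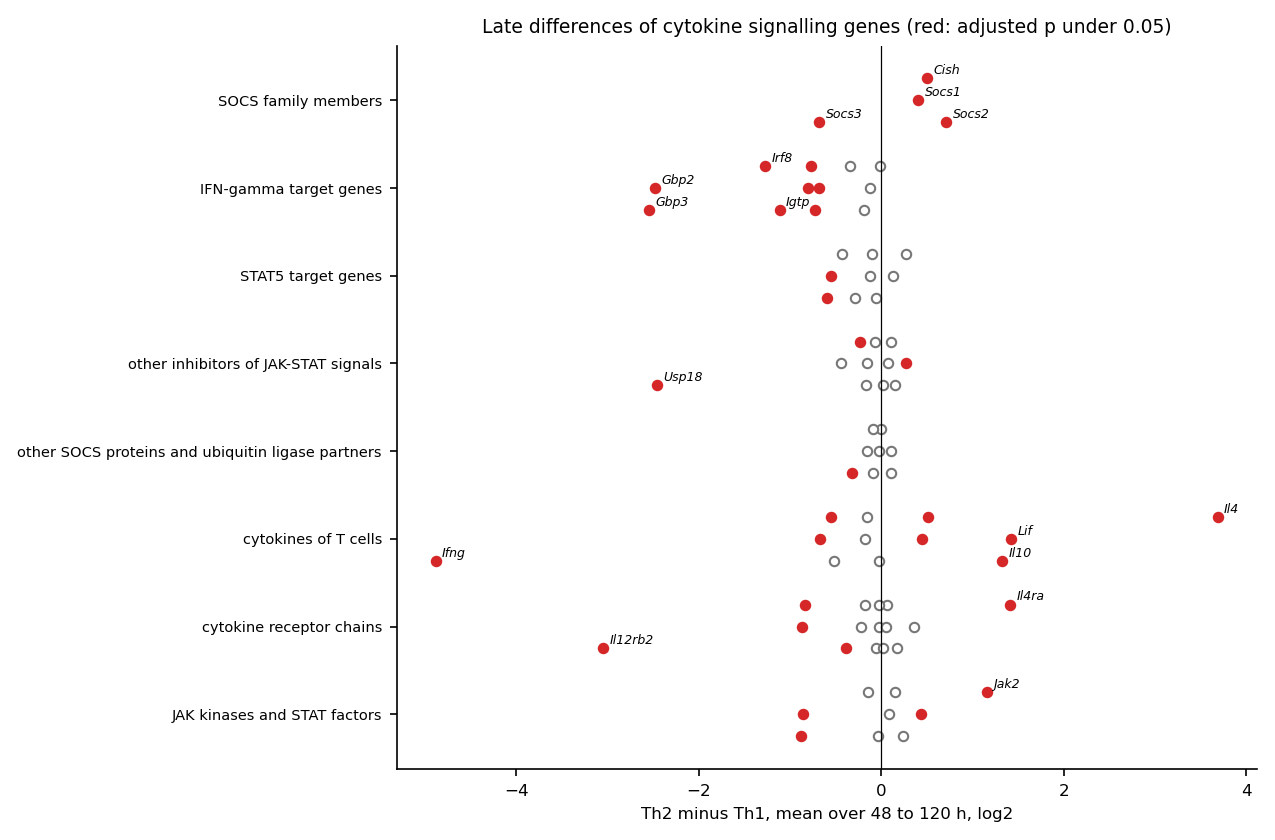
Late differences of Th2 minus Th1 in log2 units (x axis) for the members and for 7 lists of cytokine signaling genes (y axis), with 1 point per tested gene. Red points have an adjusted p under 0.05, and names are given for members and for called genes with a difference over 1 in size. *Socs3* lies left of 0 at -0.68, as do the called IFN-γ targets, and *Cish*, *Socs1*, and *Socs2* on the right between 0.41 and 0.71.

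Markers of cell types were read beside these results. All 6 markers of CD4 T cells were expressed, and their summed level ranged from 16.64 to 16.82 in naive and from 15.37 to 16.57 in activated arrays. Of the B cell markers, *Cd79b* and *Ms4a1* were tested. *Ms4a1* was not called between Th2 and Th1 cells early or late. *Cd79b* was higher in Th2 than in Th1 cells early (1.33, SE 0.21, adjusted p = 4.22e-05) and late (0.84, adjusted p = 5.3e-04), and the summed level of both ranged from 9.55 to 10.13 in naive, 7.92 to 9.87 in Th0, 7.95 to 9.38 in Th1, 8.26 to 10.45 in Th2, and 8.29 to 10.10 in Th1/2 arrays. *Cish* and *Socs1* were also called higher in Th2 than in Th1 cells early and late, and the part of *Cd79b* in this was not tested. Of the CD8 markers, *Cd8b1* was expressed (11.17 to 12.88) while *Cd8a* did not pass the filter. The 3 of 4 myeloid markers tested summed to 10.08 to 10.72 in naive and 8.00 to 10.01 in activated arrays, and the NK cell marker *Klrb1c* lay between 6.67 and 7.31 and *Ncr1* did not pass. None of the CD8, myeloid, and NK markers had an unadjusted p under 0.05 in limma between Th2 and Th1 cells early or late, while *Cd3d*, *Cd3e*, and *Cd3g* were late lower in Th2 cells by 0.18 to 0.21 in size.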

How the data were processed

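Total RNA of 74 cultures or naive cell samples had been hybridized to Illumina Mouse Sentrix-6 arrays. The authors' methods describe background correction, quantile normalization, and a log2 transform, and their tools are not given in the sources used here. Deposited values are intensities on the linear scale with array medians between 107 and 111, so only log2 was taken. Of 45135 probes, 34773 had 1 gene symbol, 18 had several, and 10344 had none. Probes were kept if 1 or more condition means lay above 6.77, the log2 median over the whole table, and the probe with the highest mean stood for its gene. Differences, F-tests, and SE came from limma 3.58.1 in R 4.3.3, with 1 mean per condition, and Benjamini-Hochberg adjustment covered 13817 genes with calls at 0.05. The fits were also run on simulated data with independent noise in each array. Such data lack the correlation of same-numbered arrays given below, so this run cannot show how the fits handle it. The replicate number in the labels marks 1 of 2 independent experiments, per the authors' methods. Residuals of same-numbered arrays at one time point had a median correlation of 0.536 over 54 pairs, with 52 over 0.1 and a lowest value of 0.0108. Alternatives were a replicate block, other windows, the second *Socs2* probe, other background correction, no filter on low values, and leaving out each experiment of each culture. The precision is limited by the 2 arrays per condition. Genes were ranked by likeness to each member through Pearson's r over condition means and over deviations from the mean of the cultures, and the 5 highest were named. Members, gene lists, markers, and comparisons were chosen with earlier results of these data known.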

Additional observations from a re-analysis of the deposited data

Results flagged for a closer look

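The difference between Th2 and Th1 cells changed between the early window (3 to 12 h) and the late window (48 to 120 h) in 3 members, by limma's test of that change over all 13817 genes. For *Cish* the change was -0.66 (SE 0.15, adjusted p = 0.00217), from 1.16 to 0.50, with -0.81 in experiment 1 and -0.50 in experiment 2. For *Socs2* it was 0.70 (SE 0.14, adjusted p = 2.79e-04), from 0.02 to 0.71, with 0.91 and 0.48 in the 2 experiments. For *Socs3* it was -0.90 (SE 0.23, adjusted p = 0.00787), from 0.22 to -0.68, with -0.80 and -0.9997 in the 2 experiments. Such a change was called for 8.75% of all genes. The call for *Cish* was lost without the Th1 cells of experiment 1. That for *Socs2* was lost without the Th2 cells of experiment 1 and on its second probe. That for *Socs3* was lost without either experiment of Th1 cells, without the Th2 cells of experiment 2, and with 48 h left out of the late window. The cause of these changes was not tested.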

How the results depend on the processing

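With the experiment as a replicate block within time points, the IL-4 term of *Socs3* in the middle window (0.41) was called (adjusted p = 0.00419), and the block ended no call of a window difference between Th2 and Th1 cells. It moved the genes called between Th2 and Th1 cells from 205 to 517 early, 514 to 1332 in the middle window, and 2823 to 4270 late. For the IL-4 term it moved them from 612 to 1295 early and 970 to 2153 in the middle window, and for the IL-12 term from 39 to 86, 90 to 387, and 1116 to 2260 in the 3 windows. Leaving out 1 experiment of 1 culture moved the counts of genes called in both directions, with larger falls than rises. Between Th2 and Th1 cells the largest falls early came without either Th1 or either Th2 experiment. In the middle window they came without Th1 experiment 1 or either Th2 experiment. In the middle window the IL-4 term ranged from 627 (without Th1 experiment 1) to 1014 and the IL-12 term from 38 (without Th1 experiment 1) to 101, with 52 without Th1/2 experiment 1, 57 without Th0 experiment 1, and 59 without Th2 experiment 1. On the second *Socs2* probe, Th2 minus Th1 (-0.028) and Th2 minus Th0 (-0.022) in the middle window, and the differences from 0 h in Th1 (-0.035) and Th1/2 (-0.049) cells at 3 h and in Th2 cells at 48 h (-0.053), changed sign. Its IL-4 terms (middle 0.018, late 0.087) and late minus early change (0.21) were not called. With a late window from 73 h, calls were lost for *Socs1* Th2 minus Th1 (0.41), the IL-4 term of *Socs2* (0.11), and the late minus early change of *Socs3* (-0.71). With an early window of 3 and 6 h, *Socs1* Th2 minus Th1 (0.67) was lost, and 18 genes were called for the IL-12 term. Of the pathway genes, 4 were called early between Th2 and Th1 cells, 12 with the block, 2 with the 3 and 6 h window, 2 without either Th2 experiment, and 1 without Th1 experiment 2. Leaving out 1 experiment of 1 culture at a time gave these ranges: *Socs1* Th2 minus Th1 early 0.54 to 0.78, middle 0.74 to 1.28, and late 0.14 to 0.67. *Socs3* Th2 minus Th1 in the middle window ranged from -0.94 to -0.61, and its IL-4 term from 0.41 to 0.70 early and from 0.18 to 0.65 in the middle window. The late minus early change ranged from -0.81 to -0.50 for *Cish*, 0.56 to 0.83 for *Socs2*, and -1.05 to -0.75 for *Socs3*. Of the 52 values that answer a comparison, 40 kept their direction and side of the threshold in every setting run for them, which were 18 to 21 per value, since the second *Socs2* probe and the changed windows bear on some values only. The 52 were Th2 minus Th1, the IL-4 and IL-12 terms, non-additivity, and the late minus early change. Values not called at first counted as kept where they stayed uncalled, as all those of non-additivity did. Among the alternatives of the 52, 23 lost a call, 2 were newly called, and 1 reversed. Among those of the other member values, 2454 stayed the same, 87 lost a call, 14 were newly called, and 4 reversed. The cause of each change was not tested.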
